A study of Mus musculus with 6 samples.

Results

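The MHC class II antigen presentation genes were 10 of the 23557 genes measured in the tumors: the chain genes H2-Aa, H2-Ab1 and H2-Eb1, the invariant chain gene Cd74, the peptide exchange genes H2-DMa and H2-DMb1, their regulators H2-Oa and H2-Ob, the transactivator gene Ciita and the reductase gene Ifi30. They were taken by gene symbol, with no threshold on their values but with earlier results of these data known, and all 10 were found. CT26 cells, a BALB/c colon carcinoma line, were injected under the skin of female BALB/c mice aged 7 weeks (500000 cells per mouse), and from day 6 the mice received intraperitoneal injections 2 times a week. The H89 group received H89, an inhibitor of protein kinase A and other kinases, at 10 mg/kg in NaCl, and the control group received NaCl. Both groups carried the same tumor line, and 3 whole tumors per group, taken on day 14 after cell injection, were sequenced as total RNA on the BGISEQ-500 platform. The labels name the samples as separate tumors and number them. SDs given are the spread between these tumors, while standard errors of log2 fold changes come from the fitted model.

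MHC class II molecules are pairs of an alpha and a beta chain that carry peptides to the surface of dendritic cells, B cells and activated macrophages, where CD4+ T cells read them. The new pair is held by the invariant chain in the endoplasmic reticulum, endosomal proteases then trim the invariant chain to a short fragment, and H2-DM exchanges that fragment for a peptide while H2-DO holds H2-DM back in some cell types. CIITA, whose gene is induced by interferon-gamma in many cells, is recruited to the promoters of the chain genes, Cd74 and the H2-DM genes by RFX, NF-Y and CREB proteins and switches them on together.

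The values were estimated read counts, with totals of 27067349 to 31958793 per tumor, and are given as counts per 1000000 (CPM) after TMM scaling of the libraries. The 13118 genes that averaged at least 0.5 CPM were compared with edgeR's quasi-likelihood test and Benjamini-Hochberg adjustment over all of them, and log2 fold changes are those of H89-treated over NaCl tumors, with their standard error (SE). Over all genes tested, the median log2 fold change was 0.004. NaCl tumor 3 stood apart from NaCl tumors 1 and 2 for most class II genes, and some of the results that rest on it are given with and without it. The colon epithelial markers Epcam, Cdx2 and Vil1 were under the filter on low counts in these tumors, whereas Krt20 was at 98.6 ± 4.09 CPM (SD, n = 3) in NaCl tumors. Neither the labels nor the paper's methods give a batch or a date of sequencing.

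Most of the 10 class II genes were at higher levels after H89, but at the spread between tumors none passed the adjusted threshold of edgeR. For H2-Aa, H2-Ab1, H2-Eb1, Cd74, H2-DMb1 and Ciita the mean CPM was 3.25 to 3.92 times that of the NaCl tumors, for H2-DMa it was 1.77 times, and for Ifi30 it was 1.15 times. Of the 10 genes, 9 passed the filter on low counts, and edgeR's adjusted p was under 0.05 for 0 of them, against 1.59% of all genes tested. At an unadjusted p under 0.05, 8 of the 9 were higher with H89 and 0 lower, where 13.1% of all genes tested were higher and 11.9% lower. The same 8 genes had all 3 H89-treated tumors above all 3 NaCl tumors, which held for 15.2% of all genes tested, with 15.5% the other way round. For 7 of the 9 the log2 fold change exceeded 1, against 2.7% of all genes tested. The median log2 fold change of the 9 genes was 1.77, and 0.335% of all genes tested had a higher one. Because the genes were chosen with earlier results of these data known, these shares are a description. H2-Ob passed the filter only through its level in the H89-treated tumors. It is one of the 8 and one of the 7, and the median is its own log2 fold change. With a filter at a mean of 5 CPM, which H2-Ob did not pass, the median of the members was 1.81. With DESeq2's Wald test, 3 of the genes, Cd74, H2-DMa and H2-DMb1, had a Benjamini-Hochberg adjusted p under 0.05, where 4.75% of all genes were called as higher. In bulk tumors, more cells of a class II bearing type and more class II RNA per cell cannot be told apart.

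**Figure D1:**
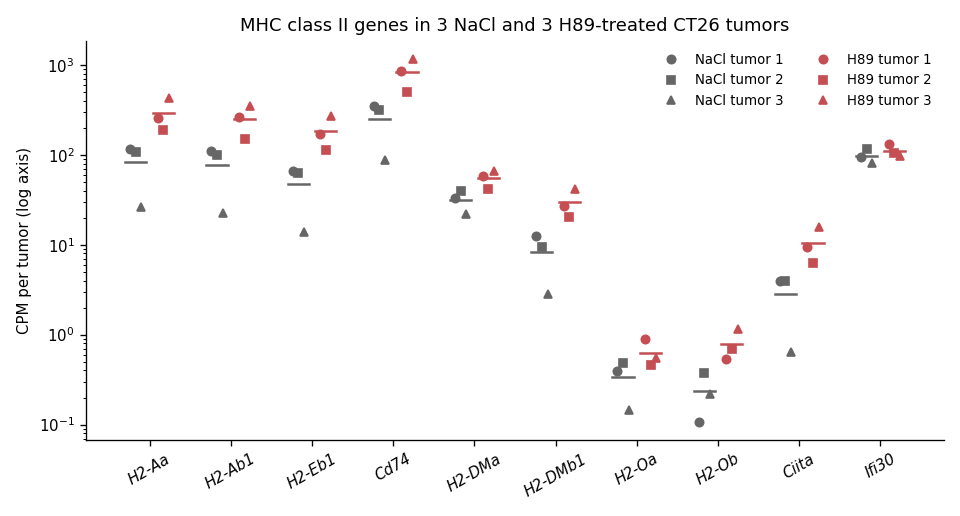
CPM of the 10 MHC class II genes in each of the 3 NaCl tumors (grey) and 3 H89-treated tumors (red), on a log axis, with the group means as lines. The H89-treated tumors lie above the NaCl tumors for 8 genes, while H2-Oa and Ifi30 overlap, and NaCl tumor 3 (grey triangle) is the lowest tumor for each gene except H2-Ob.

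H2-Aa (ENSMUSG00000036594, chr17:34282744-34287823, minus strand, GRCm38) encodes the alpha chain of the H2-A molecule. NaCl tumors 1 to 3 had 117.2, 106.9 and 26.5 CPM, and H89-treated tumors 1 to 3 had 255.8, 189.9 and 427.2 CPM. Each H89-treated tumor was above each NaCl tumor, the lowest H89-treated tumor being 1.62 times the highest NaCl tumor, although the NaCl tumors alone spanned a ratio of 4.42. The log2 fold change was 1.80 (SE 0.52, edgeR adjusted p = 0.1). H2-Ab1 (ENSMUSG00000073421, chr17:34257689-34269419), the gene of its beta chain partner, was at 110.2, 100.7 and 22.5 CPM in NaCl tumors and 263.6, 149.5 and 345.2 CPM in H89-treated tumors. The groups did not overlap here either, and the log2 fold change of H2-Ab1 was 1.70 (SE 0.55, edgeR adjusted p = 0.118). H2-Eb1 (ENSMUSG00000060586, chr17:34305867-34316674), which encodes the beta chain of H2-E, was at 65.2, 62.3 and 13.9 CPM in NaCl tumors and 170.7, 113.2 and 271.0 CPM in H89-treated tumors. It had the highest log2 fold change of the 9 genes tested, 1.97 (SE 0.55, edgeR adjusted p = 0.0915), and the lowest H89-treated tumor was 1.74 times the highest NaCl tumor.

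The summed CPM of H2-Aa, H2-Ab1 and H2-Eb1 was 292.7, 270.0 and 62.9 in NaCl tumors and 690.1, 452.6 and 1043 in H89-treated tumors. The mean was 3.49 times higher with H89, and the highest of the 6 tumors held 16.6 times the level of the lowest. The ratio of H2-Aa to H2-Ab1 in CPM was 1.06, 1.06 and 1.18 in NaCl tumors and 0.970, 1.27 and 1.24 in H89-treated tumors. This ratio is not corrected for gene length, and per kilobase of exon H2-Aa had the lower mean in both groups. The difference of the log2 ratio between groups was 0.07 (exact two-sided permutation test, p = 0.8, adjusted over the 4 ratios tested p = 0.8). H2-Ea, the gene of the alpha chain of H2-E, was listed at less than 1 estimated count in every tumor, and a count of 0 allows a level of up to 0.0912 to 0.112 CPM, depending on the tumor, for counting error alone. BALB/c mice carry an intact H2-Ea, while the C57BL/6J genome on which GRCm38 rests carries a deletion in it. The counts were made on GRCm38, so that alleles of BALB/c which differ from the reference could be counted with less success in all 6 tumors, which was not tested.

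Cd74 (ENSMUSG00000024610, chr18:60803848-60812652) encodes the invariant chain and was the most abundant of the 10 genes in CPM. It was at 345.8, 314.1 and 86.4 CPM in NaCl tumors and 848.2, 502.8 and 1170 CPM in H89-treated tumors. NaCl tumor 3 was again the lowest and H89-treated tumor 3 the highest, and the groups did not overlap. The log2 fold change was 1.76 (SE 0.50, edgeR adjusted p = 0.0964), and DESeq2's adjusted p was 0.0328. Cd74 was counted 1.18, 1.16 and 1.37 times as often as the 3 chain genes together in NaCl tumors, and 1.23, 1.11 and 1.12 times in H89-treated tumors. The difference of this log2 ratio was -0.10 (exact two-sided permutation test, p = 0.4, adjusted over the 4 ratios p = 0.667), and the groups overlapped. The invariant chain and the chains it holds thus differed between tumors by about the same factor.

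H2-DMa (ENSMUSG00000037649, chr17:34119541-34139101) encodes the alpha chain of H2-DM, the peptide exchange factor. Its CPM was 32.8, 39.5 and 21.9 in NaCl tumors and 58.5, 41.6 and 66.9 in H89-treated tumors. The gap between the groups was narrow, since H89-treated tumor 2 was 1.05 times NaCl tumor 2. The log2 fold change was 0.83 (SE 0.24, edgeR adjusted p = 0.0977), lower than that of the chain genes, but with less spread between tumors, and DESeq2's adjusted p was 0.00827. Exons of H2-DMa overlap Brd2 on the other strand.

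H2-DMb1 (ENSMUSG00000079547, chr17:34153072-34160230) encodes a beta chain of H2-DM. Its CPM was 12.5, 9.44 and 2.83 in NaCl tumors and 27.1, 20.1 and 41.8 in H89-treated tumors, with no overlap. The log2 fold change was 1.85 (SE 0.48, edgeR adjusted p = 0.0830), and DESeq2's adjusted p was 0.0470. H2-DMb2 encodes a closely related beta chain beside it on chromosome 17, and the estimated counts of H2-DMb1 lay up to 0.42 from a whole number, so that reads could have been divided between the pair. H2-DMb2 had 9.46, 10.6 and 3.43 CPM in NaCl tumors and 20.4, 13.7 and 28.5 CPM in H89-treated tumors, and its log2 fold change was 1.41 (SE 0.41, edgeR adjusted p = 0.101). With both counted as 1 gene, the log2 fold change was 1.65 (edgeR adjusted p = 0.0869). The alpha chain of H2-DM was less variable than the beta chains: the ratio of H2-DMa to the sum of H2-DMb1 and H2-DMb2 was 1.49, 1.97 and 3.49 in NaCl tumors and 1.23, 1.23 and 0.952 in H89-treated tumors, with every H89-treated tumor below every NaCl tumor, a comparison chosen after the values were seen.

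H2-Oa (ENSMUSG00000024334, chr17:34092340-34095234) and H2-Ob (ENSMUSG00000041538, chr17:34238903-34254414) encode the chains of H2-DO, which is known from B cells and some dendritic cells. Both were close to the detection limit. H2-Oa had 11, 13 and 4 counts in NaCl tumors and 25, 15 and 18 counts in H89-treated tumors (0.396, 0.485 and 0.146 CPM against 0.891, 0.456 and 0.547 CPM). The groups overlapped, since H89-treated tumor 2 was below NaCl tumor 2 in CPM (exact two-sided permutation test, p = 0.2), and H2-Oa was under the filter. Without the filter its log2 fold change was 0.85 (SE 0.48, edgeR adjusted p = 0.365). H2-Ob had 3, 10 and 6 counts in NaCl tumors and 15, 23 and 38 counts in H89-treated tumors, each H89-treated tumor above each NaCl tumor. Its log2 fold change was 1.77 (SE 0.50, edgeR adjusted p = 0.0941). At these counts the value depended on the scale, and limma on log2(CPM + 0.5) gave 0.81 and on log2(CPM + 1) gave 0.53.

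The summed count of H2-Oa and H2-Ob was far below that of H2-DMa, H2-DMb1 and H2-DMb2, with ratios of 0.00920, 0.0144 and 0.0130 in NaCl tumors and 0.0135, 0.0153 and 0.0124 in H89-treated tumors. The groups overlapped, and the difference of the log2 ratio was 0.19 (exact two-sided permutation test, p = 0.5, adjusted over the 4 ratios p = 0.667), or -0.00061 without NaCl tumor 1. The B cell markers Ms4a1, Pax5, Cr2 and Blk were under the filter too. The B cell marker list summed to 2.09 to 2.76 CPM in NaCl tumors and 3.41 to 6.02 CPM in H89-treated tumors, and the part of B cells in the level of H2-Ob was not tested.

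Ciita (ENSMUSG00000022504, chr16:10480059-10528418) encodes the class II transactivator. Its CPM was 3.98, 3.91 and 0.644 in NaCl tumors and 9.54, 6.25 and 15.6 in H89-treated tumors. It had the widest spread of the 10 genes in NaCl, a ratio of 6.18 between the highest and the lowest tumor, and no overlap between groups. The log2 fold change was 1.87 (SE 0.59, edgeR adjusted p = 0.111). The summed chain genes stood in a near constant proportion to Ciita: their CPM was 73.5, 69.1 and 97.7 times that of Ciita in NaCl tumors and 72.3, 72.4 and 67.0 times in H89-treated tumors. The ratio thus lay between 67.0 and 97.7, where the chain sum itself spanned a factor of 16.6. It was not among the ratios tested, and the value of 97.7 rests on 17.6 estimated counts of Ciita in NaCl tumor 3. Such a proportion was not particular to Ciita, since the ratio of Cd74 to the chain sum lay between 1.11 and 1.37. Exons of Ciita overlap Dexi on the other strand, and its estimated counts lay up to 0.39 from a whole number.

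Ifi30 (ENSMUSG00000031838, chr8:70762774-70766663) encodes GILT, the thiol reductase of endosomes that opens disulfide bonds of antigens. It was at 94.3, 115.8 and 80.4 CPM in NaCl tumors and 132.5, 104.4 and 97.1 CPM in H89-treated tumors. Tumors of the 2 groups overlapped (exact two-sided permutation test, p = 0.4), and the log2 fold change was 0.20 (SE 0.16, edgeR adjusted p = 0.465). NaCl tumor 3 was the lowest of the 6 for Ifi30 as well, but by a ratio of 1.44 to the highest NaCl tumor, the smallest spread of the 10 genes. Exons of Ifi30 overlap 6330537M06Rik on the other strand.

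Per kilobase of annotated exon, the levels ordered the genes in another way than their counts. In NaCl tumors Cd74 had the highest mean level, 148.2 CPM per kilobase, followed by Ifi30 with 98.7, H2-Ab1 with 30.3, H2-Eb1 with 24.3 and H2-Aa with 22, then H2-DMa with 9.10, H2-DMb1 with 4.91, Ciita with 0.298, H2-Oa with 0.243 and H2-Ob with 0.0434. The ranges over tumors of Cd74 and Ifi30 overlapped, as did those of the 3 chain genes with each other and with H2-DMa, those of H2-DMb1 with H2-DMa, H2-Aa and H2-Eb1, and those of Ciita with H2-Oa and H2-Ob. In H89-treated tumors the mean levels were 500.5 CPM per kilobase for Cd74, 113.5 for Ifi30, 98.4 for H2-Ab1, 95.1 for H2-Eb1 and 76.6 for H2-Aa, and the chain genes then overlapped with Ifi30, while Cd74 lay above it in every tumor. H2-DMb1 with 17.7 and H2-DMa with 16.1 overlapped with each other and lay below the chain genes. Ciita was at 1.10, H2-Oa at 0.449 and H2-Ob at 0.148 CPM per kilobase.

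Across the 6 tumors, H2-Aa, H2-Ab1, H2-Eb1, Cd74, H2-DMb1 and Ciita shared a single order of levels, from NaCl tumor 3 through NaCl tumors 2 and 1 to H89-treated tumors 2, 1 and 3. The order and its lowest and highest tumor were read from these genes after the values were seen, so the counts are a description. The order held for 6 of the 9 genes tested and for 0.823% of all genes tested. Irf1, Nlrc5 and Klre1, which are not members, were among the genes that shared it. NaCl tumor 3 was the lowest and H89-treated tumor 3 the highest for 7 of the 9, with H2-DMa added, and for 4.76% of all genes tested. The log2 fold changes of the 6 genes therefore depended on these tumors. Without NaCl tumor 3 they were 1.38 for H2-Aa, 1.26 for H2-Ab1, 1.54 for H2-Eb1, 1.35 for Cd74, 1.44 for H2-DMb1 and 1.40 for Ciita. Without NaCl tumor 3 and H89-treated tumor 3, a comparison added after the values were seen, they were 0.99, 0.97, 1.15, 1.03, 1.10 and 1.00 in the same order, and H2-DMa was at 0.47. All remained positive, with edgeR's adjusted p between 0.176 and 0.321 for these 7 genes in that comparison.

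**Figure D2:**
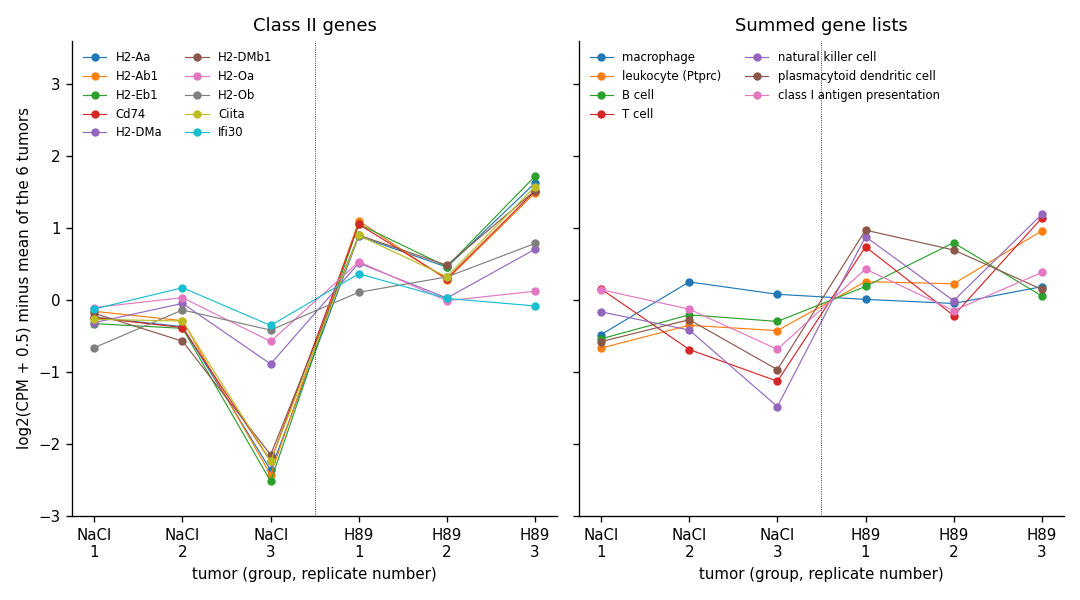
log2(CPM + 0.5) in each tumor minus the mean over the 6 tumors, for the 10 class II genes (left) and for the summed CPM of marker and class I gene lists (right); lines only join the points of 1 gene or list. The 6 genes H2-Aa, H2-Ab1, H2-Eb1, Cd74, H2-DMb1 and Ciita follow each other closely with a low NaCl tumor 3, whereas the macrophage sum has no such low.

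The promoters of 7 of the 10 genes were read from RefSeq (GRCm38.p6, 250 bases before to 50 after each start). Class II promoters are known for an X box, bound by RFX, an adjoining X2 box, bound by CREB, and a Y box, bound by NF-Y, at a fixed distance. The stretch from X to Y is shown for members and for H2-Eb2, a class II gene outside the 10, because these boxes are the shared element through which CIITA acts. Capitals mark GNAAC for the X box, TGANG for the X2 box and ATTGG for the Y box, letters chosen after the promoters were read. Sequences are 5′ to 3′ on the strand of the gene, and that of H2-DMb1 is not shown because it lies inside the first exon of GENCODE M21.

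H2-Aa, chr17:34287867-34287909, minus strand: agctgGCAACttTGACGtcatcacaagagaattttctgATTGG

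H2-Eb1, chr17:34305771-34305812, plus strand: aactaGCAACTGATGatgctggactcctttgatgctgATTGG

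H2-Oa, chr17:34092298-34092340, plus strand: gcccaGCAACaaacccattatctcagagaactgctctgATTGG

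H2-Ob, chr17:34238813-34238852, plus strand: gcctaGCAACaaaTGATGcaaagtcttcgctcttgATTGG

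H2-Eb2, chr17:34325538-34325579, plus strand: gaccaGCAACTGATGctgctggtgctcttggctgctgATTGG

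GNAAC followed by ATTGG 24 to 40 bases later on the same strand, searched on both strands, was found in 5 of the 7 members (H2-Aa, H2-Eb1, H2-DMb1, H2-Oa and H2-Ob) and in 2.83% of all 32851 windows of this length. ATTGG alone was in 37.4% of the windows. From the first base of GNAAC to that of ATTGG the distance was 33 bases in H2-Aa, H2-DMb1 and H2-Oa, 32 bases in H2-Eb1 and H2-Eb2 and 30 bases in H2-Ob. H2-Oa had the pair without TGANG. The windows of H2-DMa, Ifi30 and, outside the 10 genes, H2-DMb2 did not hold the pair. Those of H2-DMa (chr17:34122582-34122881 and chr17:34125268-34125567) and H2-DMb2 lay inside the gene as annotated in GENCODE M21. The annotated starts of H2-DMa and H2-DMb2 were thus not searched. The members had the pair on the strand of the gene, where 1.4% of the windows had it. Members were counted as genes, and the shares are of windows. Because the letters were chosen after these promoters were read, the shares are no test of the members. A match of letters is a description of the window, and no binding was measured.

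The other genes of the pathway were described from lists by role. Of 38 genes listed, 34 passed the filter, and edgeR's adjusted p was under 0.05 for 0 of them. At an unadjusted p under 0.05, 9 were higher and 3 lower with H89, beside 13.1% and 11.9% of all genes tested, and the groups did not overlap for 9 above and 3 below, beside 15.2% and 15.5%. Their median log2 fold change was 0.19, beside 1.77 for the 9 class II genes. DESeq2's Wald test called 8 of the pathway genes in either direction, beside 10.4% of all genes. The counts by role are of few genes, and 1 of 7 or 1 of 6 is near the share of all genes.

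Among the genes of the proteins that bind class II promoters, 1 of 7 had an unadjusted p under 0.05. Rfx5, a subunit of RFX, was at 14.9, 16.1 and 12.2 CPM in NaCl tumors and 19.1, 20.9 and 22.6 CPM in H89-treated tumors, with no overlap and a log2 fold change of 0.54 (SE 0.14, edgeR adjusted p = 0.0806). Nfya and Nfyc, subunits of NF-Y, had log2 fold changes of 0.04 and -0.15 (edgeR adjusted p = 0.743 and 0.293), and their groups overlapped.

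On the route from interferon-gamma to Ciita, 2 of 9 genes had an unadjusted p under 0.05. Irf1, a transcription factor that acts on the interferon-responsive promoter of Ciita, was at 116.7, 107.1 and 56.9 CPM in NaCl tumors and 185.1, 130.6 and 214.4 CPM in H89-treated tumors, without overlap (log2 fold change 0.92, SE 0.28, edgeR adjusted p = 0.106). Irf1 was lowest in NaCl tumor 3 and highest in H89-treated tumor 3, as the chain genes were. Ifng, named after its values were seen, had 2 to 76 counts per tumor, and its groups overlapped (log2 fold change 1.39, SE 0.74, edgeR adjusted p = 0.283).

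The endosomal proteases were divided. Of 7, 2 were higher with H89 and 3 lower at an unadjusted p under 0.05. Ctss, the gene of cathepsin S, which makes the last cuts in the invariant chain in dendritic cells and B cells, was at 211.6, 243.7 and 178.5 CPM in NaCl tumors and 331.8, 300.2 and 397.9 CPM in H89-treated tumors. Its groups did not overlap, and its log2 fold change was 0.70 (SE 0.15, edgeR adjusted p = 0.0593). Sppl2a, whose product cuts the remaining fragment of the invariant chain in the membrane, had a log2 fold change of 0.37 (edgeR adjusted p = 0.0841). The cathepsin genes Ctsd, Ctsb and Ctsl were at log2 fold changes of -0.37, -0.21 and -0.33 (edgeR adjusted p = 0.0800, 0.163 and 0.129), with every H89-treated tumor below every NaCl tumor. Ctsb, at 1428 ± 34.5 CPM in NaCl tumors and 1230 ± 52.5 CPM in H89-treated tumors (mean ± SD of 3 tumors), was the most abundant of them.

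Of the 4 genes that act on class II turnover, 2 had an unadjusted p under 0.05. Marchf1, a ubiquitin ligase that removes class II molecules from the surface, was at 6.29 ± 1.13 CPM in NaCl tumors and 10.9 ± 3.06 CPM in H89-treated tumors (mean ± SD of 3 tumors), without overlap and with a log2 fold change of 0.80 (edgeR adjusted p = 0.0964). Il10, the gene of a cytokine that lowers surface class II, was at 9 to 34 counts per tumor, with a log2 fold change of 1.23 (edgeR adjusted p = 0.122), and it passed the filter only through its level in the H89-treated tumors. Among the partners on T cells and the co-stimulation genes, 1 of the 6 tested had an unadjusted p under 0.05. Lag3, an inhibitory receptor that binds class II, was at 4.68, 2.80 and 1.54 CPM in NaCl tumors and 7.32, 3.96 and 11.5 CPM in H89-treated tumors (log2 fold change 1.33, SE 0.47, edgeR adjusted p = 0.142), with overlap. Cd4, the co-receptor for class II, had a log2 fold change of 0.68 (edgeR adjusted p = 0.277), and Cd80, a ligand of CD28, one of 0.08 (edgeR adjusted p = 0.764).

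**Figure D3:**
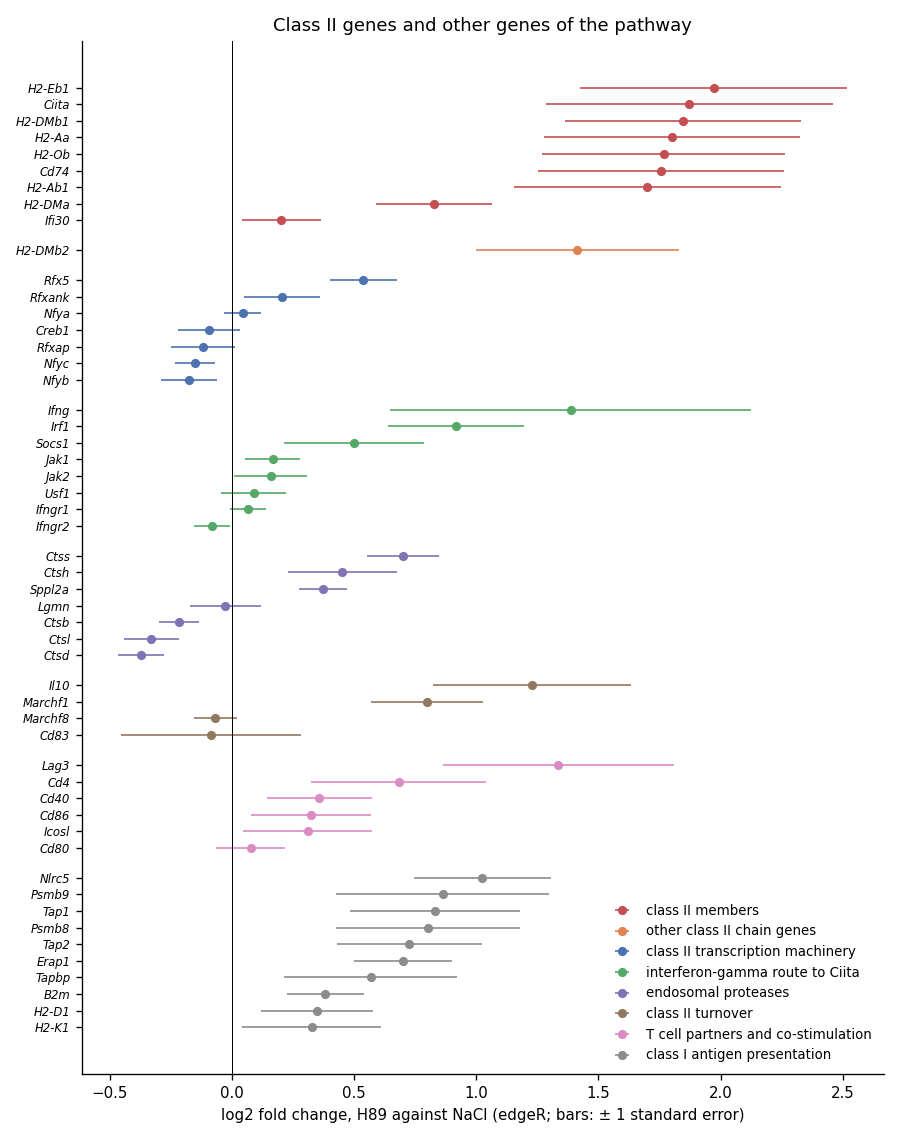
log2 fold changes of H89-treated against NaCl tumors (edgeR, x axis) for the class II genes, the other pathway genes by role and the class I genes; points are estimates and bars are 1 standard error, with 3 tumors per group. The 7 class II genes with log2 fold changes of 1.70 to 1.97 stand to the right, H2-DMa is at 0.83 and Ifi30 at 0.20, and the promoter-binding proteins lie around 0 except Rfx5. H2-Ob, one of the 7, passed the filter only through its level in the H89-treated tumors.

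Class I antigen presentation, the pathway that shows peptides of the cell's own proteins to CD8+ T cells, was set beside class II. Of its 10 genes, edgeR's adjusted p was under 0.05 for 0, against 1.59% of all genes tested. The unadjusted p was under 0.05 for 5, all higher, where 13.1% of all genes tested were higher. The groups did not overlap for 2, both with H89 above, which is near the 15.2% of all genes tested. The median log2 fold change was 0.71. Nlrc5, the class I counterpart of Ciita, was at 56.9 ± 18.5 CPM in NaCl tumors and 115.7 ± 33.1 CPM in H89-treated tumors (mean ± SD of 3 tumors), with a log2 fold change of 1.03 (SE 0.28, edgeR adjusted p = 0.0888). Erap1, a peptidase that trims class I peptides, had a log2 fold change of 0.70 (edgeR adjusted p = 0.0959), and B2m, the shared light chain, one of 0.38 (edgeR adjusted p = 0.183), with overlap. The difference between the class I and class II log2 fold changes was not tested.

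The level of class II genes was set beside markers of the cells that could carry them. Ptprc, the leukocyte marker CD45, was at 25.2, 31.5 and 29.9 CPM in NaCl tumors and 48.2, 47.2 and 78.8 CPM in H89-treated tumors, without overlap (log2 fold change 1.01, SE 0.21, edgeR adjusted p = 0.0547). The 10 macrophage markers did not separate the groups: they summed to 1236, 2051 and 1821 CPM in NaCl tumors and 1734, 1667 and 1959 CPM in H89-treated tumors. Their median log2 fold change was 0.11. Beside 13.1% of all genes tested, 1 of the 10, Fcgr1, was higher at an unadjusted p under 0.05 (log2 fold change 0.57, edgeR adjusted p = 0.171). C1qa, the most abundant of them, had a log2 fold change of 0.10 (edgeR adjusted p = 0.775).

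Relative to the macrophage sum, the chain genes stood at ratios of 0.237, 0.132 and 0.0346 in NaCl tumors and 0.398, 0.272 and 0.533 in H89-treated tumors. Every H89-treated tumor was above every NaCl tumor, and the difference of the log2 ratio was 1.91 (exact two-sided permutation test, p = 0.1, the smallest that 3 tumors against 3 allow, adjusted over the 4 ratios p = 0.4). Without NaCl tumor 3 it was 1.13. Relative to Ptprc, the ratios were 11.6, 8.58 and 2.11 in NaCl tumors and 14.3, 9.59 and 13.3 in H89-treated tumors, and the groups overlapped (difference 1.04, exact two-sided permutation test, p = 0.2). This difference rests largely on the low ratio of NaCl tumor 3, and its value without that tumor is not given.

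**Figure D4:**
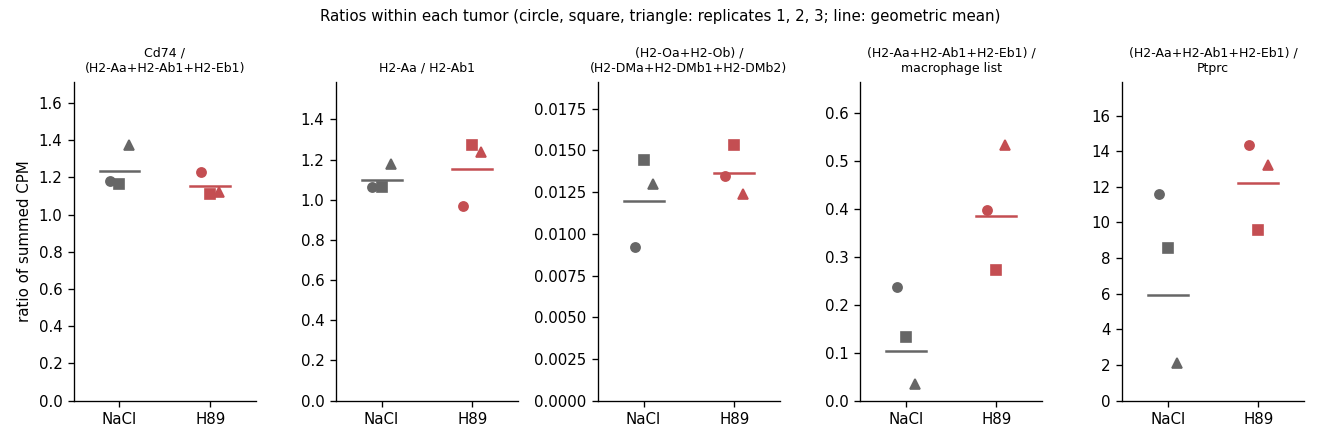
Ratios of summed CPM within each tumor (y axis, from 0) in NaCl (grey) and H89-treated (red) tumors, with geometric means as lines. The ratios of Cd74 to the chain genes, H2-Aa to H2-Ab1 and H2-DO to H2-DM overlap between groups, the ratio of the chain genes to the macrophage sum is higher in every H89-treated tumor, and the ratio to Ptprc overlaps.

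Markers of rarer cells were described in the same way, beside 13.1% of all genes tested higher and 11.9% lower at an unadjusted p under 0.05. Of the conventional dendritic cell list, 8 of 10 were tested, and at an unadjusted p under 0.05, 5 were higher with H89 and 1, Fscn1, lower. Xcr1, a chemokine receptor of cross-presenting dendritic cells, was at 0.328 ± 0.0910 CPM in NaCl tumors and 1.33 ± 0.832 CPM in H89-treated tumors (mean ± SD of 3 tumors), with a log2 fold change of 2.07 (edgeR adjusted p = 0.0869), and Batf3, a transcription factor of the same cells, had one of 1.09 (edgeR adjusted p = 0.0977). Xcr1 passed the filter only through the H89-treated tumors. The whole list summed to 386.4 to 496.9 CPM in NaCl tumors and to 321.0 to 388.6 CPM with H89. The chain genes stood at 0.589, 0.594 and 0.163 times that sum in NaCl tumors and 1.78, 1.20 and 3.25 times with H89, without overlap (difference of the log2 ratio 2.31, exact two-sided permutation test, p = 0.1). Fscn1 made up most of the sum, so the list was also summed without it, a choice made after the values were seen. The sum was then 25.0, 19.5 and 18.9 CPM in NaCl tumors and 29.3, 36.0 and 34.3 CPM in H89-treated tumors. Every H89-treated tumor was thus above every NaCl tumor for the list without Fscn1. The chain genes stood at 11.7, 13.8 and 3.34 times that sum in NaCl tumors and 23.6, 12.6 and 30.4 times in H89-treated tumors, and the groups overlapped (difference of the log2 ratio 1.35, exact two-sided permutation test, p = 0.2). NaCl tumor 3 had the lowest ratio to either sum, and the differences without it are not given.

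The plasmacytoid dendritic cell markers summed to 2.14 to 3.77 CPM in NaCl tumors and 5.22 to 9.60 CPM in H89-treated tumors, and 3 of the 3 tested were higher at an unadjusted p under 0.05, Siglech with a log2 fold change of 1.13 (edgeR adjusted p = 0.0722). Another of the 3, Pacsin1, passed the filter only through the H89-treated tumors, and the sum was lowest of the H89-treated tumors in tumor 3, where the chain genes were highest. Markers of natural killer cells, a known source of interferon-gamma, summed to 5.74 to 15.0 CPM in NaCl tumors and 16.8 to 39.1 CPM in H89-treated tumors, with 4 of 5 higher at an unadjusted p under 0.05 and Klre1 at a log2 fold change of 1.83 (edgeR adjusted p = 0.0682). T cell markers summed to 10.2 to 25.6 CPM in NaCl tumors and 19.7 to 51.1 CPM in H89-treated tumors, and overlapped, with 4 of 6 higher at an unadjusted p under 0.05. The sums of natural killer and T cell markers were lowest in NaCl tumor 3 and highest in H89-treated tumor 3. The part of these cells in the class II levels was not tested. Of the keratinocyte markers, 2 were tested. Cdsn, which made up most of their sum, fell (log2 fold change -2.15, SE 0.20, edgeR adjusted p = 0.0288), and Krt10 had a log2 fold change of 0.31 (edgeR adjusted p = 0.465). Cdsn was the only gene of all the lists with an edgeR adjusted p under 0.05, and Krt1, Lor and Krt5 were at or near 0. Of the remaining lists, 1 of 4 neutrophil, 0 of 4 endothelial and 2 of 5 fibroblast markers tested were higher at an unadjusted p under 0.05. Of the 5 colon epithelial markers tested, 2 were lower. For the counts of this paragraph, 13.1% of all genes tested were higher and 11.9% lower at that threshold.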

How the data were processed

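RNA of 6 CT26 tumors (3 NaCl, 3 H89) was analysed. The authors deposited 1 table of estimated counts per gene, named after TPM, whose values sum to 27067349 to 31958793 per tumor, with 58.6% to 61.4% of the values above 0 within 0.01 of a whole number. The submitters' processing notes name kallisto, DESeq2 and GRCm38. The annotation is not given in the sources used here. Each gene is a column, and 136 gene columns were recorded by name, the other 23421 being read in the same way.

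Counts were rounded, filtered (mean of at least 0.5 CPM) and tested with edgeR 4.0.16 in R 4.3.3 (TMM, glmQLFit, glmQLFTest, treatment as the only term, Benjamini-Hochberg adjustment, threshold 0.05). The plan gave the Wald test of DESeq2 (here 1.42.0), the package the paper used, as an alternative. The paper names Bonferroni adjustment and a minimum fold change, whereas Benjamini-Hochberg adjustment without a fold change limit was used here. Each standard error was taken as |log2 fold change| over the root of the F statistic. The script was tested on simulated data. Ratios within tumors were compared by an exact two-sided permutation test over 20 assignments. Other alternatives were limma 3.58.1, other scalings, filters and pseudocounts, the replicate block and each tumor left out. Positions, exon lengths and overlaps are from GENCODE M21 on GRCm38, by symbol. Whether counting used strand is not given in the sources used here, so reads of genes that overlap on the other strand cannot be told apart.

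The members and the gene lists were chosen with earlier results of these data known. Genes named are the members and, per list, those with an adjusted p under 0.05, otherwise the 2 with the smallest p and the 1 with the highest mean CPM, and the 8 genes nearest in pattern to the summed chain genes. Genes outside this rule are said to be so or complete a count. Some genes of the lists are not reported here.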

Additional observations from a re-analysis of the deposited data

How the results depend on the processing

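The log2 fold changes of the 9 class II genes tested kept their sign in all 150 alternatives, and 147 of these left each gene on the same side of the adjusted threshold. The other 3 were those of Cd74, H2-DMa and H2-DMb1 under DESeq2, which called 3 members, 8 pathway genes and 1392 of all genes, where edgeR called 0, 0 and 208. Without the filter and with the robust fit edgeR called 1 pathway gene each, and voom with quantile normalization called 21 of all genes. With 1 tumor left out, 0 members and 0 pathway genes were called and 0 to 12 of all genes, and the median log2 fold change of the members lay between 1.38 and 2.07. Without NaCl tumor 3 and H89-treated tumor 3 together, added after the data were seen, 3 of all genes were called and the median was 0.99. The difference of the log2 ratio of H2-DO to H2-DM was -0.00061 without NaCl tumor 1, and that of H2-Aa to H2-Ab1 was -0.00565 without H89-treated tumor 2. They lay between -0.00061 and 0.32 and between -0.00565 and 0.19 over the tumors left out, that of Cd74 between -0.15 and -0.02, and that of the chain genes to macrophage markers between 1.13 and 2.52. The causes were not tested.

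With the replicate number as a block, 0 members, 0 pathway genes and 0 of all genes were called, and the median of the members was 1.85. Deviations of tumors with the same number correlated at 0.16, 0.06 and -0.03, and NaCl tumor 3 correlated best with H89-treated tumor 2 (0.35), so that the numbers were not taken to pair the tumors.

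With 3 tumors per group, no permutation p under 0.1 is possible, and H2-Oa and H2-Ob rest on 3 to 38 counts per tumor.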

Other observations

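Among 10455 genes outside the members with a mean of at least 5 CPM, the 8 whose centred log2(CPM + 0.5) over the 6 tumors lay nearest to that of the summed H2-Aa, H2-Ab1 and H2-Eb1 were Iigp1, Gbp4, Gbp10, Gm12185, Tgtp2, Gm4841, Tgtp1 and H2-DMb2. The root mean square difference was 0.24 for Iigp1 and 0.39 for H2-DMb2, where the median over those genes was 1.30. Among the members it was 0.10 for Cd74, 0.10 for Ciita and 0.17 for H2-DMb1, but 0.78 for H2-DMa, 0.98 for H2-Ob, 1.02 for H2-Oa and 1.16 for Ifi30. Iigp1 was at 98.7, 92.8 and 25.2 CPM in NaCl tumors and 259.0, 114.6 and 286.5 CPM in H89-treated tumors, with a log2 fold change of 1.61 (SE 0.51, edgeR adjusted p = 0.117). Gbp4 was at 130.0, 108.7 and 23.7 CPM in NaCl tumors and 251.8, 117.7 and 344.0 CPM in H89-treated tumors, so that H89-treated tumor 2 was below NaCl tumor 1. Tgtp1 and Tgtp2 are near copies of each other, between which the counting could have divided reads. These likenesses are over 6 tumors that fall into 2 groups and are a description.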
